A study of Mus musculus with 11 samples.

Results

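The clustered protocadherin genes were read here as the mm9 window chr18:37080000-38010000, which holds the alpha, beta and gamma clusters. Every enriched interval (island) of 4 histone marks that overlapped the window was taken, together with every row of the authors' comparison tables that did. That gave 297 of 272485 islands in 12 lists and 183 of 122753 rows in 12 tables, 480 of 395238 entries in all. The window was set by position and not by any measured value, though earlier results of these data were known when it was chosen.

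Chromatin immunoprecipitation with sequencing (ChIP-seq) had been done on mouse primary cardiomyocytes, dissociated enzymatically, at 1 day (neonatal) and at 2 months (adult) of age. The labels place the adult cells in the left ventricle and give no strain, treatment or number of animals. Antibodies were against H3K4me3, H3K79me2, H3K27me3 and H3K9me3. Each mark at each age is 1 library, so no comparison between ages has a replicate, and no p-value was computed. Intervals below cover counting error only, for reads that may include copies made by PCR. Intervals for shares of islands treat the islands of the window as independent. They are neighbours and are not independent. Another set of lists comes from mouse embryonic stem cells (mES) of other studies, reprocessed by the authors. Whether the purified cells carry cardiomyocyte marker genes was not checked, since no gene positions of the files' build were used.

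Clustered protocadherins are cadherin-type adhesion proteins of the cell surface, best known in neurons, where each cell chooses a few isoforms. In the alpha and gamma clusters, each variable exon has its own promoter and is spliced to constant exons that the cluster shares. Beta genes are single-exon genes without such constant exons. In neurons, promoter choice involves the insulator protein CTCF, DNA methylation and H3K9 methylation by Setdb1. As general background, H3K4me3 marks promoters, and H3K79me2 lies over the beginning of genes being transcribed. H3K27me3 is laid down by Polycomb repressive complex 2, and H3K9me3 is typical of repressed heterochromatin.

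By gene order in the RefSeq annotation, 14 alpha genes (Pcdha1 to Pcdhac2) come first, then 22 beta genes (Pcdhb1 to Pcdhb22) and 22 gamma genes (Pcdhga1 to Pcdhgc5). Of these 58, 1 gamma gene, Pcdhgb8, is annotated as a pseudogene. Slc25a2, a mitochondrial carrier, and Taf7, a subunit of the general transcription factor TFIID, lie between the beta and gamma genes. Diaph1, an actin-nucleating formin, follows the gamma cluster. That annotation is of another build, so it gave order only, and no island was assigned to a single gene.

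The islands fell into 4 stretches, separated by gaps of more than 50 kb in which none of the 12 lists had an island. Stretch 1 ran over chr18:37080000-37182399 (102.4 kb), stretch 2 over chr18:37247800-37317399 (69.6 kb), stretch 3 over chr18:37377400-37729799 (352.4 kb) and stretch 4 over chr18:37797800-38018599 (220.8 kb). The gaps measured 65.4, 60 and 68 kb. This division was made after the islands had been seen.

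**Figure D1:**
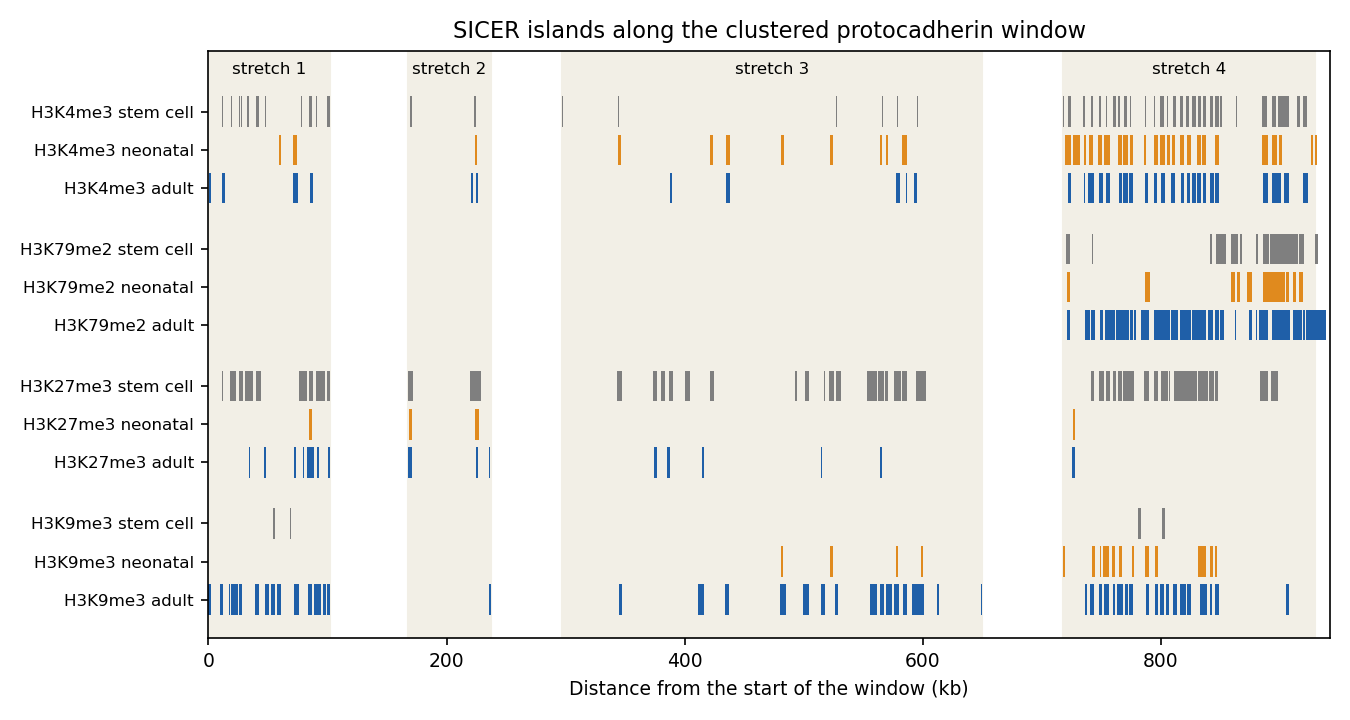
Each bar is 1 SICER island, in its list's row (mark and stage), against distance from the start of the window in kb; shaded areas are the 4 stretches. H3K79me2 islands lie in stretch 4 alone, and adult H3K9me3 islands lie in all 4 stretches, with 14, 1, 15 and 19 of them.

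H3K9me3 had the widest difference between ages in number of islands. The neonatal list had 16 islands in the window, covering 4.56% of it, and the adult list had 49, covering 17.6%. The stem cell list had 4 islands, covering 0.839%. Over all chromosomes H3K9me3 islands covered 0.874% in neonatal and 1.399% in adult cells. As background, 2764 other windows of the same length tiled the chromosomes. At least 49 adult H3K9me3 islands were found in 13 of these (0.470%), and at least 16 neonatal ones in 75 (2.71%). The windows of equal length just before and just after the clusters held 3 and 5 adult H3K9me3 islands.

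In stretch 1 the neonatal list had no H3K9me3 island and the adult list had 14, which covered 43.0% of the stretch. The highest-scored of these was chr18:37168800-37174799 (6000 bp, score 88). Scores are the authors' own and rank islands within a list only. Stretch 3 had 4 neonatal and 15 adult islands. It held the widest and highest-scored adult island of the window, chr18:37671400-37680799 (9400 bp, score 165). Stretch 4 had 12 neonatal and 19 adult islands. The highest-scored neonatal island, chr18:37911400-37917999 (6600 bp, score 127), lay there. Most neonatal H3K9me3 islands were also adult ones: 14 of 16 (87.5%, exact interval 61.7 to 98.4%) overlapped an adult island, against 17.3% of all neonatal H3K9me3 islands. In the other direction the overlap was 14 of 49 adult islands (28.6%, interval 16.6 to 43.3%; 9.51% of the whole adult list). Cut into 93 bins of 10 kb, the window had H3K9me3 in 14 bins in neonatal cells and in 42 in adult cells, with 13 in common. Bins were counted in the window only. The adult islands without a neonatal counterpart comprised all 14 of stretch 1, the single one of stretch 2, 12 of stretch 3 and 8 of stretch 4. A place without a neonatal island was not always without neonatal reads, as the regions below show.

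**Figure D2:**
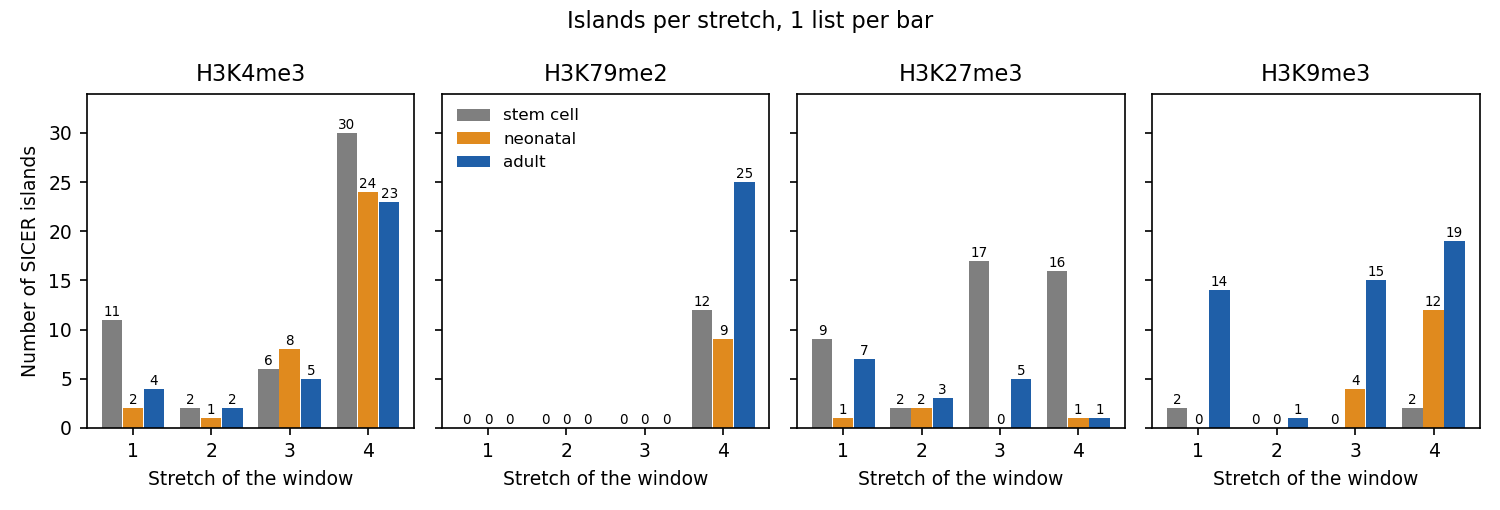
Number of SICER islands (vertical axis) in each stretch (horizontal axis) for the 4 marks, with 1 list behind each bar and so no error bar. Adult bars exceed neonatal ones for H3K9me3 in every stretch, while H3K4me3 has 24 neonatal and 23 adult islands in stretch 4.

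The comparison tables carry a normalised value per library for 27 regions of the window. Divided by 1 factor per library, every value came out whole within 0.01 and was read as the number of reads left after the control was subtracted, with a floor of 1 read. Folds below are ratios of the normalised values, with exact binomial intervals for the reads. A value at the floor entered as 1 counted read, and the error of the subtracted control was left out. Each "at least" fold below is the end of such an interval and holds only on that reading. The authors' deposited tables list only regions at a false discovery rate (FDR) below 0.01, computed from 1 library per age. For H3K9me3 they list 20 of the window's 27 regions (74.1%), against 9686 of all 19265 regions (50.3%). Of the 20, 17 were higher in adult cells, against 49.4% of all listed regions. At least 4-fold higher were 5 of the 20, against 33.9%.

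As scaled by the authors, all 6 H3K9me3 regions of stretch 1 were higher in adult cells, by 1.95- to 4.95-fold. The neonatal list had no island there. Neonatal reads were 8 to 48 and adult reads 32 to 91. Region chr18:37179800-37182535 had 8 neonatal and 36 adult reads, a ratio of 4.95 (interval 2.26 to 12.3). Region chr18:37110400-37117199 had 11 and 49 reads, a ratio of 4.90 (interval 2.51 to 10.4). Neonatal reads were thus present in stretch 1 where no neonatal island had been called.

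The largest H3K9me3 ratio of the window was in stretch 3. Region chr18:37648800-37654199 had 12 neonatal and 75 adult reads, 6.87-fold more after scaling (interval 3.71 to 13.9). Nearby, chr18:37663000-37666999 had 12 and 51 reads, a ratio of 4.67 (interval 2.46 to 9.63). Region chr18:37491600-37496199, not listed, had 35 and 42 reads, a ratio of 1.32 (interval 0.822 to 2.13). Only the adult list had an island in it. In stretch 2 the single region, chr18:37300000-37309199, had only 2 and 12 reads, and its ratio of 6.60 had an interval of 1.47 to 60.7. In these 3 stretches each listed region was higher in adult cells.

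Stretch 4 had the most H3K9me3 reads and smaller ratios. Over its 12 regions with both values the median ratio was 1.45, against 2.43 in stretch 1 and 2.75 in stretch 3. The region with the most adult reads, chr18:37890513-37910599, had 128 neonatal and 196 adult reads, a ratio of 1.68 (interval 1.34 to 2.12). It also had the most neonatal reads of the window, yet no neonatal island was called in it. In stretch 4, 3 listed regions were lower in adult cells. Region chr18:37865600-37869999 had 64 neonatal and 26 adult reads, 2.24-fold fewer. At chr18:37965000-37995599 reads were 98 and 48, 1.86-fold fewer, though only the adult list had an island there. Region chr18:37995800-37999999 had 7 reads against the floor of 1, and its interval reached no change, so no fold is given.

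**Figure D3:**
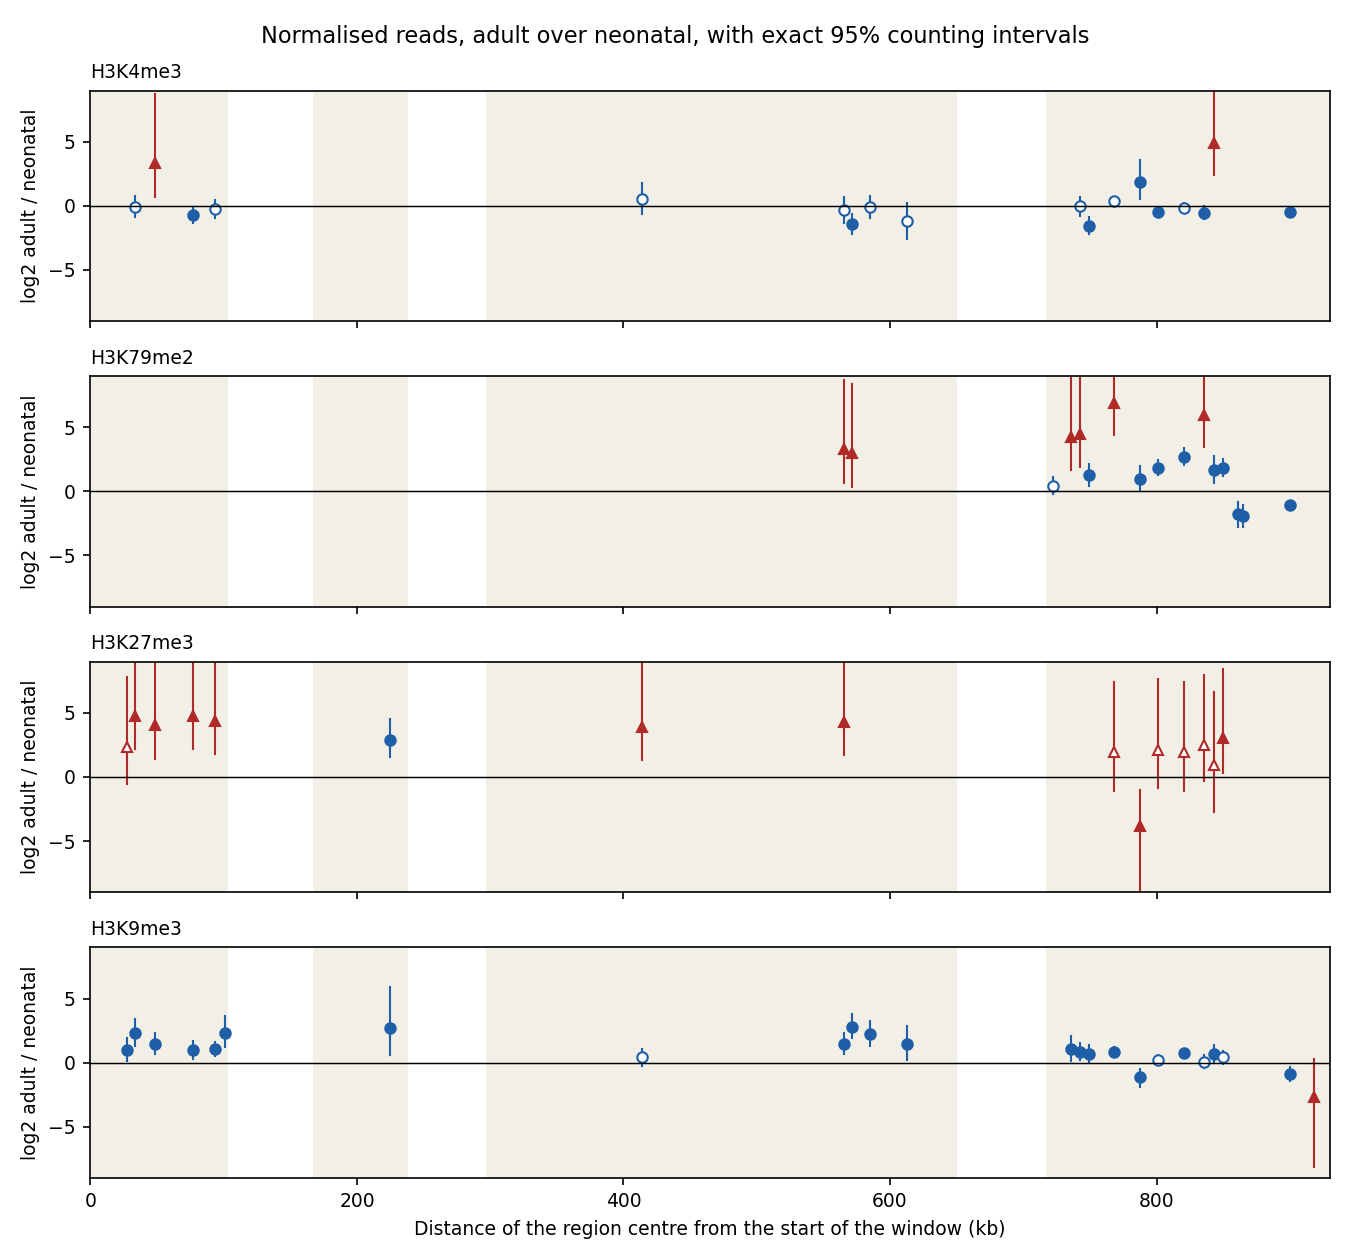
Log2 of adult over neonatal normalised reads (vertical axis) for each region, by distance of its centre from the window start in kb; lines are exact 95% counting intervals, cut at the panel edge. Filled symbols are regions the authors list, and open ones are not listed. Red triangles have 1 age at the floor of 1 read, so only the near end of the line bounds them, with the floor taken as 1 counted read. H3K9me3 points lie above 0 in stretches 1 to 3, and H3K79me2 points pass from above to below 0 within stretch 4.

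The neonatal H3K9me3 and H3K27me3 libraries had most of their table reads in 1 region outside the window. Region chr2:98502200-98507599 held 58.7% of the neonatal H3K9me3 reads in the table, 58.9% of the neonatal H3K27me3 reads and 14.8% of the neonatal H3K79me2 reads. In adult cells the densest region, chr10:104053800-104055399, held 11.2%, 13.5% and 0.433% of those marks' reads. With reads scaled to the table total without each library's densest region, 17 of 20 H3K9me3 regions were again higher in adult cells. For some of the 17 the interval then included no change. In stretch 1 these were chr18:37105800-37109399 (interval 0.796 to 2.77) and chr18:37151800-37162599 (interval 0.923 to 2.34). In stretch 3 it was chr18:37692400-37693641 (interval 0.867 to 5.39). Among the higher listed regions of stretch 4, only chr18:37839800-37856799 and chr18:37890513-37910599 kept an interval above 1, from 1.06 and 1.002. That scaling divided every adult over neonatal fold by 1.34 for H3K9me3, 1.57 for H3K4me3 and 1.78 for H3K27me3, and multiplied it by 1.37 for H3K79me2. The densest H3K4me3 region was chr10:104053800-104055399 at both ages, with 4.66% of neonatal and 10.4% of adult reads. Listed H3K9me3 regions at least 4-fold higher then numbered 2 instead of 5. What part these dense regions had in the calling of islands was not tested.

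H3K4me3 differed little between ages in number of SICER islands. With the authors' MACS regions, from a caller of narrower peaks, there were 15 in neonatal and 3 in adult cells. The window had 35 neonatal SICER islands (11.8% of its length) and 34 adult ones (10.9%), and 49 in stem cells (10.2%). Of the other windows, 28 (1.01%) had as many neonatal islands and 67 (2.42%) as many adult ones. Stretch 4 held most of them, 24 neonatal and 23 adult, with neighbouring island centres a median of 6.80 kb and 6.90 kb apart. Of the neonatal islands 24 of 35 overlapped an adult one (68.6%, interval 50.7 to 83.1%), close to 64.0% of all neonatal H3K4me3 islands. Counted from adult cells it was 23 of 34 islands (67.6%, interval 49.5 to 82.6%; 56.8% of the whole list).

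The sharing differed along the window. In stretch 4, 20 of 24 neonatal H3K4me3 islands overlapped an adult one, and in stretch 3 only 2 of 8. The highest-scored neonatal H3K4me3 island was chr18:37965000-37970399 (5400 bp, score 188), and the highest-scored adult one was chr18:37973600-37980999 (7400 bp, score 125). Both lay toward the far end of stretch 4. Of the 93 bins, 30 held H3K4me3 in neonatal and 28 in adult cells, 22 of them in common.

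The authors' deposited table lists 9 of the window's 27 regions for H3K4me3 (33.3%), against 10394 of all 19265 regions (54.0%). Of the 9, 3 were higher in adult cells (54.4% of all listed), 2 of those by at least 4-fold (33.3% of all listed). Region chr18:37921000-37924599 had 1 neonatal read, the floor, and 51 adult reads, at least 5.20-fold more. Its neighbour chr18:37911600-37919399 had 67 and 77 reads and was 1.46-fold lower in adult cells after scaling. Region chr18:37127000-37130599 in stretch 1 also went from the floor of 1 read to 17, at least 1.58-fold more, or 1.01-fold when scaled without the densest region. The remaining one, chr18:37865600-37869999, had 5 and 31 reads, a ratio of 3.68 (interval 1.42 to 12.1). Without the densest region in the scaling its ratio was 2.35 (interval 0.905 to 7.73), and the bound at chr18:37921000-37924599 was 3.31-fold. The largest decline, at chr18:37827000-37831327, was from 54 to 31 reads, 2.93-fold after scaling, or 4.60-fold without the densest region. Close to it in size, chr18:37648800-37654199 went from 40 to 25 reads, 2.69-fold lower, in the region where H3K9me3 had its largest ratio.

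H3K79me2 was found in stretch 4 alone, at every stage. The neonatal list had 9 islands there, covering 45.0 kb or 21.2% of the stretch inside the window. The adult list had 25, covering 138.0 kb or 65.0%, and the stem cell list 12. MACS regions went the other way, with 6 in neonatal and 0 in adult cells. Of the other windows, 819 (29.6%) had at least as many neonatal islands and 1009 (36.5%) at least as many adult ones, so such numbers were common. The adult list was also longer genome-wide, with 60601 islands against 17899. With both lists held to the same length, by score, the adult share of the window's islands went from 73.5% to 59.1%. Of the neonatal islands 7 of 9 overlapped an adult one, against 88.5% of all neonatal islands. Counted from adult cells it was 7 of 25, with 33.6% over the whole list.

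Within stretch 4 the direction of the listed H3K79me2 regions changed along the window. The authors' deposited table lists 15 of the window's 27 regions (55.6%), against 12641 of all 19265 regions (65.6%). Of the 15, 12 were higher in adult cells (54.0% of all listed), 7 of those by at least 4-fold (38.1% of all listed). Of these 7, 6 had neonatal reads at the floor. All 10 listed regions between chr18:37814400 and chr18:37935199 were higher. The next 3 listed regions, between chr18:37939200 and chr18:37995599, were lower. The remaining rows higher in adult cells, chr18:37642800-37647799 and chr18:37648800-37654199, lay in stretch 3, where neither age had an island. They rose from the floor to 20 and 16 reads, at least 1.60-fold and 1.24-fold.

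Among the higher ones, region chr18:37839800-37856799 had 1 neonatal read, the floor, and 234 adult reads, at least 20.8-fold more. Region chr18:37911600-37919399 likewise went from 1 read to 125, at least 11.0-fold. Region chr18:37890513-37910599, above the floor at both ages, had 22 and 285 reads, a ratio of 6.48 (interval 4.20 to 10.5). Neonatal values here alternated between the floor and 10 to 31 reads in neighbouring regions. The bounds of 20.8-fold and 11.0-fold rest on the floor taken as 1 counted read. Among the lower ones, chr18:37942800-37946399 had 36 and 19 reads, 3.79-fold lower after scaling (interval 2.12 to 6.99). Region chr18:37939200-37942399 had 26 and 15 reads, 3.46-fold lower (interval 1.77 to 7.04). The region with the most reads of the window, chr18:37965000-37995599, had 538 neonatal and 509 adult reads, 2.11-fold lower (interval 1.87 to 2.39). Scaled without the densest region, these declines were 2.76-fold, 2.52-fold and 1.54-fold (interval 1.36 to 1.74 for the last). The folds of the higher regions grew by the same factor. Region chr18:37965000-37995599 holds the highest-scored island of both ages, chr18:37966000-37983999 in neonatal (score 502) and chr18:37973400-37988199 in adult cells (score 375). Beyond the last listed region no H3K79me2 reads of both ages were given, so islands there could not be set against reads. Neonatal island chr18:37995800-37999799 (score 63) lay there and overlapped an adult one. The widest adult island, chr18:38002000-38018599 (16600 bp, score 253), also lay there, overlapped no neonatal island and reached past the window's end. Over the end of the window, chr18:37917000-38010000, H3K79me2 islands covered 40.4% in neonatal and 60.4% in adult cells. That span is not limited to the lower regions. It also takes in listed regions higher in adult cells, up to chr18:37935199, and the part beyond the last listed region.

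H3K27me3 covered far more of the window in stem cells than in cardiomyocytes. The stem cell list had 44 islands covering 22.3% of the window. The neonatal list had 4 islands (1.01%) and the adult list 16 (3.27%). Over all chromosomes H3K27me3 islands covered 4.34% in stem cells, 1.74% in neonatal and 1.95% in adult cells. At least 44 stem cell islands were found in 22 of the 2764 other windows. Such cardiomyocyte numbers were common: 921 of the other windows (33.3%) had at least as many neonatal islands and 479 (17.3%) at least as many adult ones. Of the 44 stem cell islands, 3 overlapped a neonatal H3K27me3 island (6.82%, interval 1.43 to 18.7%), against 27.1% of all stem cell islands. With adult islands 10 of the 44 overlapped (22.7%, interval 11.5 to 37.8%), against 29.7%. Of the 40 bins of 10 kb with stem cell H3K27me3, 27 had it at neither age. Bins outside the window were not counted, so that number has no background.

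All 4 neonatal H3K27me3 islands overlapped an adult one, against 43.4% of all neonatal islands, and 4 of 16 in the adult list had a neonatal counterpart (28.5% of all). The pair in stretch 2 had the highest neonatal scores, 45 at chr18:37248400-37250999 and 40 at chr18:37304200-37306999. The highest-scored adult island, chr18:37248000-37251399 (3400 bp, score 54), lay over the first of these. Stretch 1 went from 1 neonatal to 7 adult islands and stretch 3 from 0 to 5. Stretch 4 had 1 at each age, at its near end (chr18:37806400-37807799 in neonatal cells), where stem cells had none. The 16 stem cell islands of stretch 4 lay farther along it.

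For H3K27me3 the authors' deposited table lists 9 of the window's 27 regions (33.3%), against 5269 of all 19265 regions (27.4%). Of the 9, 8 were higher in adult cells (72.5% of all listed), each by at least 4-fold on the table's values (64.4% of all listed). With folds centred on the table's median, 7 of 9 were higher. Neonatal reads were at the floor in 7 of the 9, so their table folds set a floor value against few reads. Region chr18:37300000-37309199 in stretch 2 was the only one above the floor at both ages, with 5 and 58 reads, a ratio of 7.28 (interval 2.95 to 23.3). Scaled without the densest region, that ratio was 4.09 (interval 1.66 to 13.1). In stretch 1, chr18:37110400-37117199 went from the floor to 43 reads, at least 4.59-fold, and chr18:37151800-37162599 from the floor to 42, at least 4.48-fold. These bounds were 2.58-fold and 2.52-fold without the densest region. The exception was chr18:37865600-37869999, where 9 neonatal reads went to the floor, at least 1.99-fold fewer, or 3.54-fold without the densest region.

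Region chr18:37865600-37869999 stood apart from its neighbours in stretch 4 in H3K9me3 and H3K27me3. There H3K9me3 (64 to 26 reads) and H3K27me3 (9 to 1 reads) were lower in adult cells. The H3K4me3 ratio of 3.68 (5 to 31 reads) became 2.35 without the densest region (interval 0.905 to 7.73), so no direction is given. H3K79me2 was higher (13 to 52 reads, a ratio of 2.00 with interval 1.07 to 4.01). So it was in every listed region between chr18:37814400 and chr18:37935199. Region chr18:37865600-37869999 alone was listed in all 4 of the authors' stage tables. On one side, chr18:37839800-37856799 had 117 neonatal and 191 adult H3K9me3 reads, a ratio of 1.79, or 1.34 without the densest region (interval 1.06 to 1.70). On the other, chr18:37874200-37888199 had 106 and 113 reads. Its ratio of 1.17 (interval 0.891 to 1.54) became 0.876 without the densest region (interval 0.666 to 1.15), so no direction is given.

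Marks were also compared with one another, as islands of 2 marks that overlap by at least 1 bp in the same stage. In a bulk library 2 marks at 1 place may lie in different cells or on different alleles, and fewer marked cells cannot be told apart from less mark per cell. In stem cells 38 of 49 H3K4me3 islands overlapped H3K27me3 (77.6%, interval 63.4 to 88.2%), against 30.3% of all stem cell H3K4me3 islands. This pairing, the bivalent state known from stem cell promoters, was rare in cardiomyocytes. It was found at 2 of 35 neonatal islands (5.71%; 13.0% of all) and 3 of 34 adult islands (8.82%; 16.8% of all).

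H3K4me3 islands overlapped H3K9me3 far more often in cardiomyocytes than in stem cells, and more often than over the whole lists. In stem cells 1 of 49 H3K4me3 islands overlapped it (2.26% of all). In neonatal cells 12 of 35 did (34.3%, interval 19.1 to 52.2%), against 5.61% of all neonatal H3K4me3 islands. In adult cells 26 of 34 did (76.5%, interval 58.8 to 89.3%), against 14.6%. Counted from the other mark, 11 of 16 neonatal H3K9me3 islands overlapped H3K4me3 (68.8%; 14.8% of all), and 25 of 49 adult ones did (51.0%; 23.5% of all). The stretches differed: 17 of the 19 adult H3K9me3 islands of stretch 4 overlapped H3K4me3, but 4 of 14 in stretch 1 and 4 of 15 in stretch 3.

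**Figure D4:**
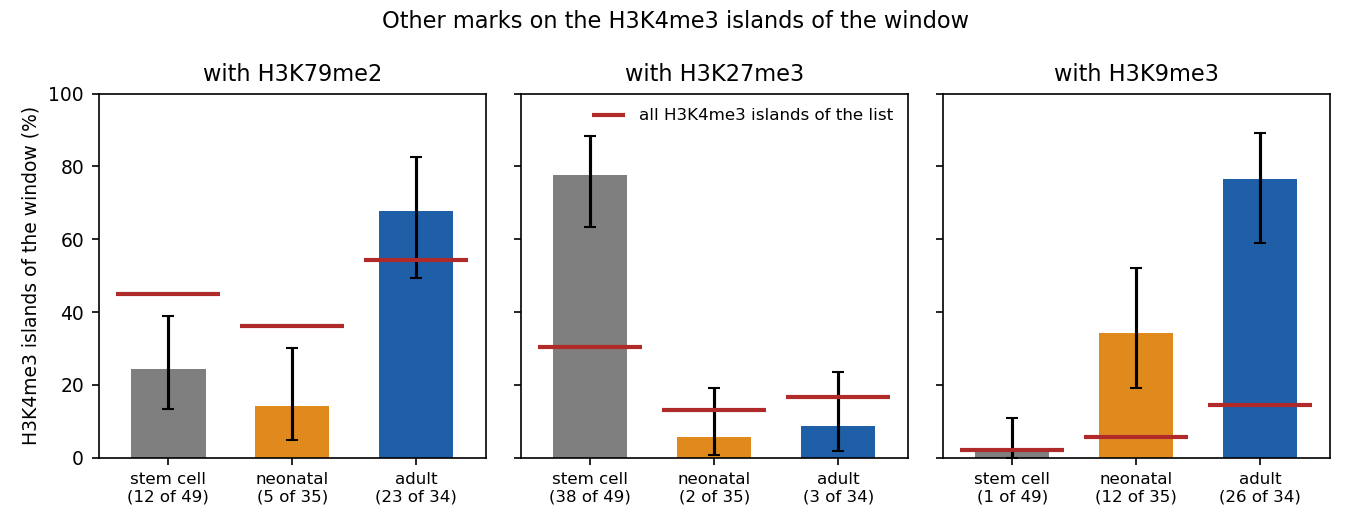
Share (%) of the window's H3K4me3 islands that overlap an island of another mark in the same stage, by stage; error bars are exact 95% binomial intervals, and red lines give the share over all H3K4me3 islands of that list. For H3K9me3 the share is 2.04%, 34.3% and 76.5% in stem, neonatal and adult cells, and for H3K27me3 it is 77.6%, 5.71% and 8.82%. The error bars treat neighbouring islands as independent, which they are not.

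H3K79me2 joined this pair in adult stretch 4. All 23 adult H3K4me3 islands there overlapped H3K79me2, as did all 19 adult H3K9me3 islands. Adult H3K79me2 islands covered 65.0% of that stretch, so an overlap of 1 bp was easily reached. Over the window that made 23 of 34 H3K4me3 islands (67.6%; 54.3% of all) and 19 of 49 H3K9me3 islands (38.8%; 12.2% of all). In neonatal cells 5 of 35 H3K4me3 islands overlapped H3K79me2 (14.3%; 36.2% of all). Islands of H3K4me3 that overlapped both H3K79me2 and H3K9me3, and not H3K27me3, numbered 18 of 34 in adult cells (52.9%), all in stretch 4. Over the whole adult list they numbered 481 of 23957 (2.01%). The most frequent neonatal pairing of H3K4me3 was with H3K9me3 and no other mark, at 11 of 35 islands (31.4%), against 443 of 21312 (2.08%). In neonatal stretch 4, 9 of 24 H3K4me3 islands had that combination and 1 had H3K79me2 as well.

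The places of stem cell H3K27me3 carried other marks in cardiomyocytes. Of the 44 stem cell islands, 32 overlapped an adult H3K9me3 island, against 10.6% of all stem cell H3K27me3 islands. With neonatal H3K9me3 islands 14 overlapped, against 10.4%, and with adult H3K79me2 islands 16, against 25.5%. The stretches again differed. All 16 stem cell islands of stretch 4 overlapped adult H3K79me2 and 14 of them adult H3K9me3, while none overlapped H3K27me3 at either age. Adult H3K79me2 covered 65.0% of that stretch, so its overlaps were easily reached. In stretch 1, 8 of 9 overlapped adult H3K9me3 and 5 adult H3K27me3. In stretch 3, 10 of 17 overlapped adult H3K9me3 and 3 adult H3K27me3. The widest stem cell island, chr18:37891000-37910599 (19600 bp, score 462), lay in the region where H3K79me2 went from 22 to 285 reads.

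The authors' deposited stem cell tables share the cardiomyocyte libraries with the tables above, and their stem cell reads come from other laboratories. For H3K27me3, 0 of 13 regions were higher in neonatal than in stem cells (49.0% of all listed) and 4 of 14 were higher in adult than in stem cells (50.7%). Of those 13, only chr18:37300000-37309199 had neonatal reads above the floor, with 5. The comparisons with stem cells were not scaled without the densest region, so its part in these values was not tested. For H3K9me3, 17 of 18 regions were higher in neonatal (50.3%) and 21 of 22 in adult cells (51.2%). For H3K4me3, 15 of 16 were higher in neonatal (49.6%) and 20 of 23 in adult cells (49.6%). For H3K79me2, 7 of 9 were higher in neonatal (47.5%) and 11 of 15 in adult cells (56.2%). Of the 49 stem cell H3K4me3 islands, 24 overlapped a neonatal island (44.2% of all) and 29 an adult one (44.7% of all).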

How the data were processed

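The authors aligned, called and compared the reads. The submitters' processing notes name Bowtie 0.12.8, SICER 1.1, MACS 1.4.2, DiffBind 1.2.0 and build mm9. The deposited island lists carry a score per interval, and the deposited comparison tables hold log2 values, folds and FDR from DiffBind at default settings and FDR below 0.01, per the authors' note deposited with the files. That note also says that stem cell reads of H3K4me3, H3K27me3 and H3K9me3 were lifted from mm8. The 8 stem cell value columns were not used. Total reads per library are not given in the sources used here. Input libraries (3) had no files used here.

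From these, overlaps, covered lengths, read ratios and exact (Clopper-Pearson) 95% intervals were computed with Python 3.11.15, pandas 2.3.3, numpy 2.4.6 and scipy 1.17.1, and checked on simulated data. Named items were the 5 highest-scored and 3 widest islands of a list and up to 8 table rows with the largest folds; other regions named were chosen after their values were seen. Lists of pathway and cell type genes were not placed, since no mm9 annotation was used. The window and lists were chosen with earlier results of these data known. No sequence is printed.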

Additional observations from a re-analysis of the deposited data

How the results depend on the processing

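The adult share of the islands of both ages was 75.4% for H3K9me3, 73.5% for H3K79me2, 80.0% for H3K27me3 and 49.3% for H3K4me3. The H3K9me3 and H3K27me3 shares stayed within their exact intervals with islands at or above the median score, with equal list lengths and in a window without its outer 10%. The H3K79me2 share was 95.2% at or above the median score and 87.5% in the narrower window. The H3K4me3 share passed 50 at or above the median score (53.2%). Narrower MACS regions were few. They gave adult shares of 16.7% (3 of 18) for H3K4me3, 0 of 6 (0%) for H3K79me2 and 1 of 1 (100%) for H3K9me3, and none for H3K27me3. Of neonatal MACS regions, 20% (3 of 15) overlapped an adult one for H3K4me3 and 0 of 6 for H3K79me2; the other marks gave no value. The H3K27me3 rows higher in adult cells went from 88.9% to 100% among rows above the floor at both ages (1 of 1) and among rows with an island (7 of 7). Adult H3K4me3 islands with both H3K79me2 and H3K9me3, an alternative added after the data were seen like the scaling without the densest region, ranged from 44.1% to 68.0%. The other alternatives moved no value out of its interval. With gaps over 30 kb the window had 8 stretches instead of 4. The cause of these shifts was not tested. With 1 library per mark and age no replicate could be left out. No paired analysis was possible because each mark and age has 1 library.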
